A study of Mus musculus with 6 samples.

Results

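The 10 genes studied belong to the SOCS, CIS and PIM families, grouped here as cytokine feedback genes: Socs1, Socs2, Socs3, Socs4, Socs5, Socs6, Cish, Pim1, Pim2 and Pim3. They were chosen by name, as members of these gene families, from 26128 genes listed in a table of read counts, and all 10 were among the 14671 genes that passed a filter on low counts and were tested. The libraries came from double negative T (DNT) cells, which carry CD3 but neither CD4 nor CD8. Wild type adult C57BL/6 mice, with spleen given as the tissue, provided CD4+ T cells that were converted in vitro with mature dendritic cells and IL-2 and sorted as CD3+NK1.1-CD4-CD8-. All 6 cultures received anti-CD3/CD28 beads for 48 h, 3 without further addition (Control) and 3 with IL-33 at 50 ng/ml (IL-33), to ask what IL-33 changes in DNT cells. The labels do not say whether the 3 samples of a group were separate mice or cultures, so p-values measure only the spread between these samples, which may be technical.

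Cytokines such as IL-2, IL-7 and the interferons signal through receptors that carry JAK kinases, which phosphorylate STAT transcription factors. STATs in turn switch on Cish and several SOCS genes, whose proteins bind the receptors or the kinases and slow the same pathway. Transcripts of such genes are often read as a trace of recent cytokine signalling. PIM kinases are switched on by the same STATs, are active as soon as they are made, and support growth and survival of lymphocytes. IL-33 itself belongs to the IL-1 family and its receptor does not use JAK kinases.

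Of the 10 genes, 6 differed between IL-33 and Control at an adjusted p under 0.05 (edgeR's quasi-likelihood test, Benjamini-Hochberg adjustment over all genes tested). Pim3, Socs2 and Pim1 rose, and Socs1, Cish and Pim2 fell. The share was 27.5% among all genes tested, with 13.6% higher and 13.9% lower, and 36.3% among the 8369 tested genes whose mean level lay within the range of the 10. Socs1 alone also passed the study's fold threshold of 1.5, which 4.87% of all genes tested passed together with the adjusted p. Those that did so and were lower with IL-33 made up 2.39% of all genes tested. The CPM of the groups (counts relative to library size, scaled by TMM) did not overlap for 5 of the 10 genes, against 38.9% of all genes tested. The median log2 fold change of the 10 was -0.017, and that of all genes tested was -0.000628.

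**Figure D1:**
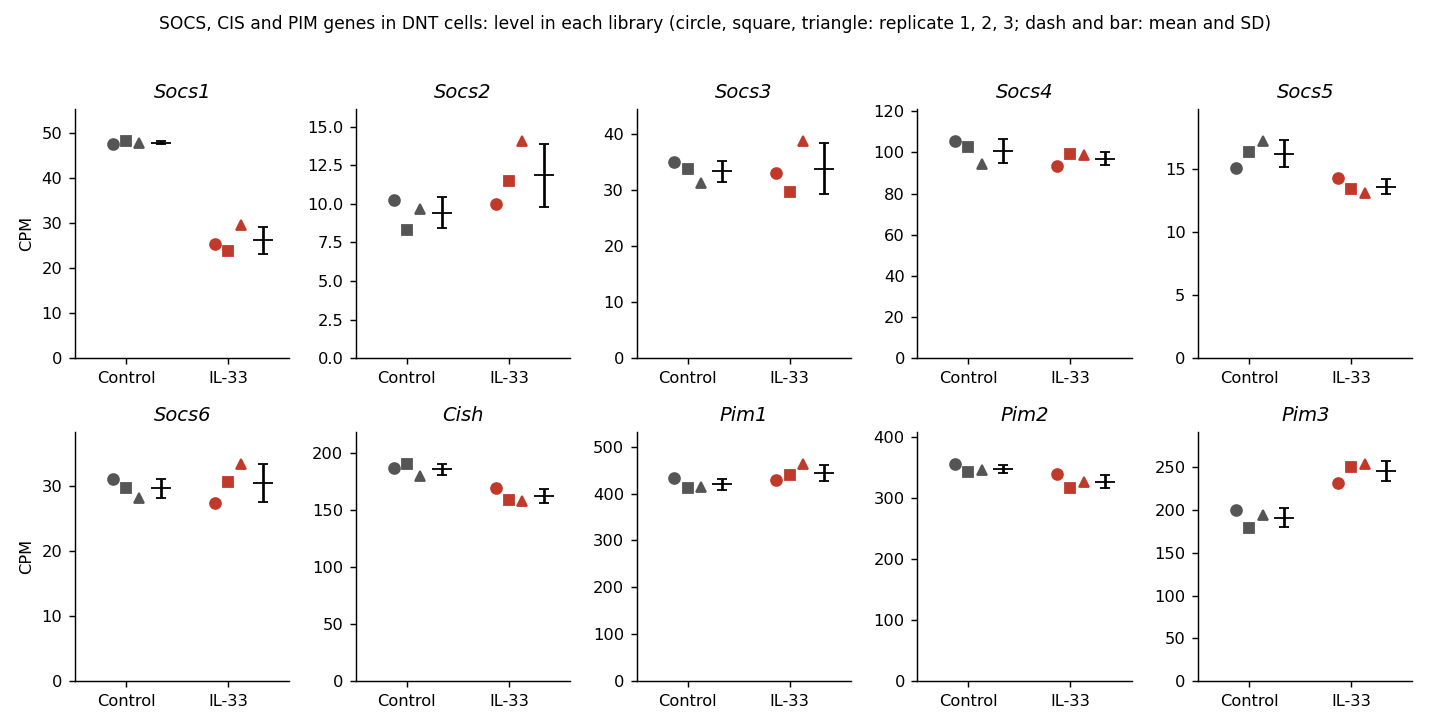
Level of each of the 10 genes (CPM) in the 3 Control and the 3 IL-33 libraries, with points for libraries and dashes with bars for group means and SD. Relative to its level, Socs1 shows the widest gap, from 47.8 to 26.2 CPM on average, and the groups of Socs2, Socs3, Socs4, Socs6 and Pim1 overlap.

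**Figure D2:**
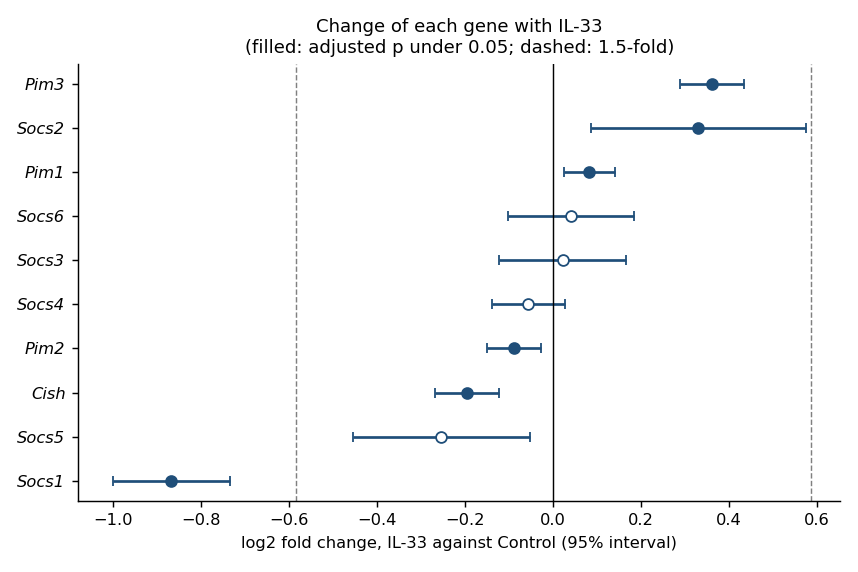
log2 fold change of each gene, IL-33 against Control, with bars for the 95% confidence interval. The interval of Socs1 runs from -1.001 to -0.73, and the intervals of Socs3, Socs4 and Socs6 include 0.

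The libraries held 20256342 to 22336050 counts each, and no pair of replicates agreed within sampling noise (chi-square per gene 2.64 to 3.67). T cell markers were present, with the 11 genes of the list summing to 2500 to 2670 CPM in Control and 2560 to 2660 CPM in IL-33. Within that sum, 1 gene was called higher and 4 lower with IL-33, beside 13.6% and 13.9% of all genes tested. Although the sort excluded CD8+ cells, Cd8a transcripts stood at 545 ± 13.6 CPM in Control and 400.2 ± 9.15 CPM in IL-33 (mean ± SD, n = 3 each), and Cd4 transcripts were at 0.934 and 0.373 CPM. Cd8b1, for the other CD8 chain, went the opposite way to Cd8a, at 9.68 ± 1.65 and 16.3 ± 2.07 CPM. Klrb1c, for the NK1.1 marker also sorted out, held 669 to 741 counts a library in Control and 513 to 595 in IL-33. Of these 4 genes, 1 was called higher and 3 lower with IL-33. The summed level of the 10 dendritic and myeloid markers was 88.7 to 90.5 CPM in Control and 63.7 to 67.4 CPM in IL-33. Clec9a, which marks a dendritic cell subset, was at 0 in every library, and Itgax, which activated T cells also express, was the most abundant of the list at 40.3 CPM. Itgax fell from 54.6 ± 2.07 to 26.0 ± 1.59 CPM, while H2-Ab1, a class II gene and the next most abundant, rose from 24.8 ± 1.96 to 30.3 ± 0.9998 CPM. The 6 mast cell and basophil markers summed to 14.9 to 20.4 CPM in Control and 10.2 to 13.6 CPM in IL-33, with Mcpt4 at 0, and the 5 B cell markers to 4.79 to 5.70 and 5.29 to 6.34 CPM, with Ms4a1 and Pax5 at 0. The 5 innate lymphoid cell genes, which some T cells also express, summed to 238 to 240 CPM in Control and 166 to 181 CPM in IL-33. Of these, 3 were called lower and 1 higher. Rora, the most abundant, held 2253 to 2587 counts in Control and 1832 to 2007 in IL-33. Areg went the other way, at 121 to 129 and 185 to 252 counts, and Klrg1 overlapped, at 72 to 136 and 87 to 139. The part of these shifts in the results that follow was not tested.

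Per exon length, which allows levels of different genes to be compared, the PIM genes were the most abundant of the 10 in Control. Pim1 stood at 380.6 ± 15.2 TPM, a level per transcript length computed here from the counts and the summed exon length, and Pim2 at 380.0 ± 12.3 TPM, and their ranges overlapped. Pim3 followed at 240.1 ± 15.6 TPM. Cish led the chosen SOCS and CIS genes at 88.2 ± 3.20 TPM, ahead of Socs1 at 50.1 ± 0.617, Socs4 at 44.7 ± 3.12 and Socs3 at 35.2 ± 2.47 TPM. Socs6 at 7.95 TPM and Socs5 at 7.68 TPM overlapped, and Socs2 was lowest at 3.01 TPM. With IL-33, Socs1 stood at 27.0 TPM, below Socs4 at 42.4 TPM and Socs3 at 35.2 TPM, and so moved from the 5th to the 7th place of the 10, while the other genes kept their relative order on this scale.

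**Figure D3:**
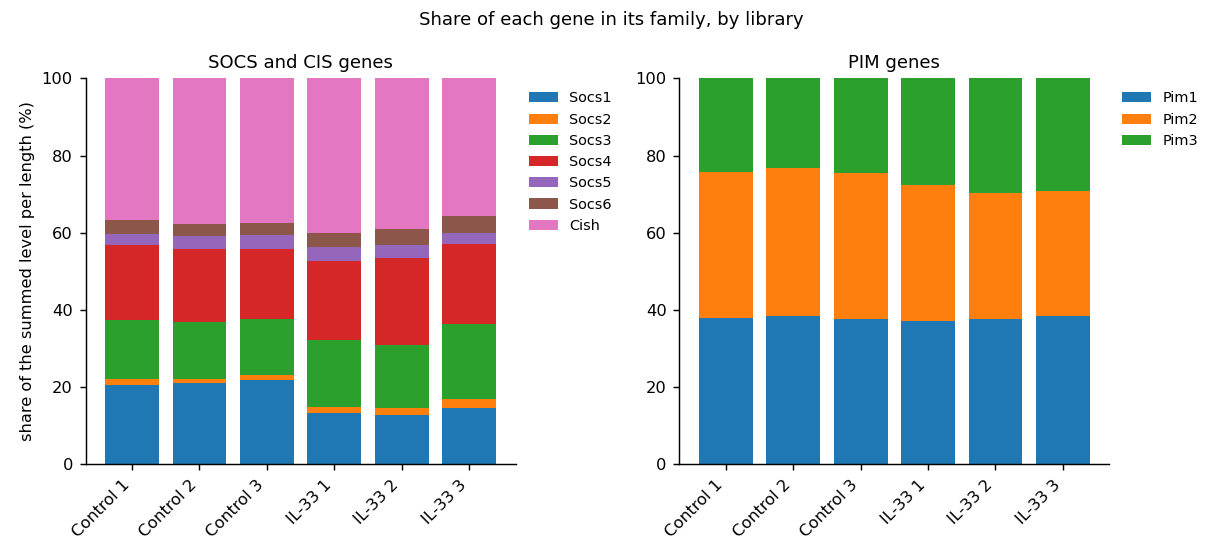
Share of each gene in the summed TPM of the chosen genes of its family (percent), in Control and IL-33 libraries. Within SOCS and CIS the share of Socs1 is 21.2% in Control and 13.6% in IL-33, and within PIM the share of Pim3 is 24.0% and 28.8%.

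SOCS1, the SOCS protein best known for blocking interferon and common gamma chain cytokine signals, binds JAK kinases directly through a kinase inhibitory region. Socs1 (ENSMUSG00000038037, minus strand, chr16:10782240-10785536 in GRCm38) stood at 47.5, 48.1 and 47.7 CPM in the Control libraries and at 25.2, 23.7 and 29.5 CPM in the IL-33 libraries. Every IL-33 library lay below every Control library, and the spread was wider with IL-33 than without. The mean was 47.8 ± 0.273 CPM in Control and 26.2 ± 3.01 CPM in IL-33 (SD, n = 3 each), so the level fell by 45.2%. The log2 fold change was -0.87 (SE 0.067, 95% confidence interval -1.001 to -0.73, edgeR's adjusted p = 1.04e-20). Its size ranked 474 among the 14671 genes tested, and a test against a fold change of 1.5 rather than of none still gave an adjusted p of 0.00119 (edgeR's glmTreat). In bulk RNA, fewer cells that express a gene and less RNA per cell cannot be told apart.

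CIS binds phosphorylated sites on the IL-2 receptor and its relatives, where STAT5 would dock, and Cish is among the best known STAT5 target genes. Cish (ENSMUSG00000032578, plus strand, chr9:107296026-107302784) stood at 187, 190.4 and 180.3 CPM in the Control libraries and at 169, 159 and 158 CPM in the IL-33 libraries. The groups did not overlap, and the gap between the lowest Control and the highest IL-33 library was small beside the level. The log2 fold change was -0.20 (SE 0.036, 95% confidence interval -0.27 to -0.12, edgeR's adjusted p = 5.71e-06). On the opposite strand Gm17040, a transcribed pseudogene, covers 4.07% of the Cish exons and Gm17041, an antisense transcript, 7.46%. Whether counting used the strand is not given, and Gm17040 held 12 to 28 counts a library, so reads of these genes may not be fully separated from those of Cish.

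SOCS2 restrains growth hormone signalling and is also a STAT5 target. Socs2 (ENSMUSG00000020027, minus strand, chr10:95385362-95417180) stood at 10.3, 8.32 and 9.67 CPM in Control and at 9.997, 11.5 and 14.04 CPM in IL-33. The first IL-33 library lay within the Control range and the third was the highest of the 6. Its log2 fold change was 0.33 (SE 0.12, 95% confidence interval 0.086 to 0.57, edgeR's adjusted p = 0.0340), the opposite direction to Cish. The call was lost with DESeq2 (adjusted p = 0.123), and, in edgeR, without the second Control (log2 fold change 0.25), the third Control (0.35) or the third IL-33 library (0.19, adjusted p = 0.347).

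SOCS3 also carries a kinase inhibitory region and is best known as the brake on IL-6 family receptors. Socs3 (ENSMUSG00000053113, minus strand, chr11:117966079-117970047) stood at 34.96, 33.9 and 31.3 CPM in Control and at 33.1, 29.7 and 38.7 CPM in IL-33. The IL-33 libraries held both the lowest and the highest of the 6 values. The log2 fold change was 0.022 (95% confidence interval -0.12 to 0.17, edgeR's adjusted p = 0.860), and its sign turned when either the third Control or the third IL-33 library was left out, to -0.024 and -0.085.

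The letters around the start sites of these genes are shown for the STAT motifs that textbook accounts tie to them. RefSeq (GRCm38.p6) gave windows of 300 bases, 250 before and 50 after the start, for 7 of the 10 genes, 8 windows in all because Pim1 has a pair of them. The motif TTCNNNGAA, the spacing that STAT5 prefers, was searched on both strands and stood in 8.3% of 32851 promoter windows. It stood in the windows of Cish and Socs3, the first of which fell with IL-33 while the second did not pass the test. The same ends 4 bases apart, the spacing that STAT6 prefers, stood in 6.95% of all windows and in none of these 8. GAAA, 2 bases of any kind and again GAAA, the core of interferon-stimulated elements, was searched after the values had been seen, and stood in 3.44% of all windows and in that of Socs1. A match is a description of the letters and not a measured site. Capitals mark the matches, and the Socs1 stretch holds a pair that overlap.
Cish, chr9:107296649-107296678, plus strand, 10 bases before and 20 from the RefSeq start, in a 5′ UTR exon of GENCODE M21: ccgcccagttTTCCTGGAAagTTCTTGGAA
Socs3, chr11:117969501-117969530, minus strand, match starting at position -154 from the RefSeq start, in an intron of a longer GENCODE M21 transcript: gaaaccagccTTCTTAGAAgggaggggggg
Socs1, chr16:10785537-10785786, minus strand, the 250 bases before the RefSeq start, outside any GENCODE M21 gene: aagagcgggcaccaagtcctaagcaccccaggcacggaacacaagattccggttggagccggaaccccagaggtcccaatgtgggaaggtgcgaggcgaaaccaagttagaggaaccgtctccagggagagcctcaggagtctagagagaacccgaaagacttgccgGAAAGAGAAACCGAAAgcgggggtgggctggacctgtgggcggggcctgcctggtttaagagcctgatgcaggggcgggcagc

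The other SOCS genes code for less studied members, of which SOCS4 and SOCS5 have been tied to receptors of the EGF family and SOCS6 to receptor tyrosine kinases. Socs4 (ENSMUSG00000048379, plus strand, chr14:47276931-47296102) stood at 94.3 to 105 CPM in Control and 93.2 to 99.0 CPM in IL-33, with a log2 fold change of -0.056 (95% confidence interval -0.14 to 0.028). Socs6 (ENSMUSG00000056153, minus strand, chr18:88665224-88927481) stood at 28.2 to 31.0 and 27.4 to 33.3 CPM, with a log2 fold change of 0.041 (95% confidence interval -0.10 to 0.18). Neither passed the test, and the groups of both overlapped. Socs5 (ENSMUSG00000037104, plus strand, chr17:87107679-87137839) stood at 15.1, 16.3 and 17.2 CPM in Control and at 14.3, 13.4 and 13.1 CPM in IL-33. The groups of Socs5 did not overlap, yet the adjusted p was 0.0502 (edgeR, log2 fold change -0.25, SE 0.10), on the edge of the threshold. limma-voom put it at 0.0452, and edgeR without the first Control library at 0.0355 (log2 fold change -0.30).

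PIM1, PIM2 and PIM3 are serine/threonine kinases with shared substrates, and their activity follows their transcript and protein levels. Pim3 (ENSMUSG00000035828, plus strand, chr15:88862186-88865726) stood at 200.3, 179 and 194 CPM in the Control libraries and at 232, 250.4 and 254 CPM in the IL-33 libraries. Every IL-33 library lay above every Control library. The mean rose by 28.4%, from 191.2 ± 10.997 to 246 ± 11.6 CPM (SD, n = 3 each), with a log2 fold change of 0.36 (SE 0.036, 95% confidence interval 0.29 to 0.43, edgeR's adjusted p = 1.38e-12). This was the highest fitted value of the 10 genes, next to Socs2, whose interval overlaps it, and it stayed under the fold threshold of 1.5.

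Pim1 (ENSMUSG00000024014, plus strand, chr17:29490753-29496112) stood at 433, 412 and 415 CPM in Control and at 429.9, 441 and 463 CPM in IL-33. The first Control library exceeded the first IL-33 library, so the groups overlapped. The log2 fold change was 0.082 (SE 0.029, 95% confidence interval 0.025 to 0.14, edgeR's adjusted p = 0.0246), and the call was lost with DESeq2 (adjusted p = 0.0517) and, in edgeR, without the second Control (0.069), the third Control (0.074) or the third IL-33 library (0.054). The antisense gene Gm26885 covers 14.5% of the Pim1 exons and held at most 4 counts a library. Pim2 (ENSMUSG00000031155, plus strand, chrX:7878262-7883432) stood at 356, 343 and 347 CPM in Control and at 339, 317 and 326 CPM in IL-33. The groups of Pim2 did not overlap, by a gap of a few CPM. Its log2 fold change was -0.089 (SE 0.030, 95% confidence interval -0.15 to -0.029, edgeR's adjusted p = 0.0191), and the call was lost in edgeR without the first Control (-0.074), the second IL-33 (-0.065) or the third IL-33 library (-0.084).

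Ratios of counts within a library do not depend on how libraries are scaled, and 6 pairs of the 10 genes were compared this way with exact permutation tests over the 6 libraries. The Socs1/Socs3 ratio was 1.36, 1.42 and 1.53 in the Control libraries and 0.763, 0.799 and 0.763 in the IL-33 libraries, so Socs1 counts exceeded Socs3 counts in every Control library and were below them in every IL-33 library. The Pim2/Pim3 ratio was 1.78, 1.91 and 1.79 in Control and 1.46, 1.27 and 1.29 in IL-33. The Cish/Socs2 ratio was 18.1, 22.8 and 18.6 in Control and 16.9, 13.8 and 11.2 in IL-33. For these 3 pairs the groups did not overlap, with mean differences in log2 ratio of -0.89, -0.45 and -0.52. The Pim1/Pim2 ratio differed by 0.17 on the log2 scale, from a geometric mean of 1.20 to 1.36, and the Pim1/Pim3 ratio by -0.28, from 2.20 to 1.81, again without overlap. The Socs4/Socs5 ratio overlapped, at 6.22 and 7.13. All pairs but Socs4/Socs5 reached p = 0.1 in the two-sided exact permutation test, the smallest value that 3 libraries against 3 allow (0.12 adjusted over the 6 pairs), and Socs4/Socs5 gave an exact p of 0.2. The pairs of PIM genes share members and are not independent of each other. Each ratio restates the changes of the genes in it. The share of other gene pairs without overlap was not computed, and for single genes it was 38.9% of all genes tested.

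**Figure D4:**
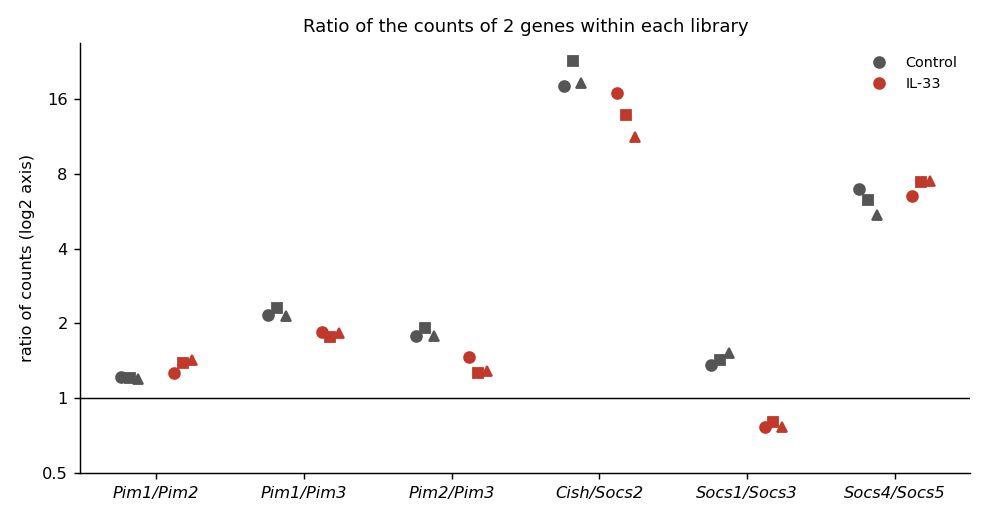
Ratio of read counts of 2 genes within each library for the 6 pairs (log scale), with points for the 3 Control and the 3 IL-33 libraries. The Socs1/Socs3 points lie between 1.36 and 1.53 in Control and between 0.763 and 0.799 in IL-33, and the groups overlap for Socs4/Socs5.

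As a share of the summed TPM of the 7 SOCS and CIS genes chosen, Socs1 made up 21.2% ± 0.592 in Control and 13.6% ± 1.01 in IL-33 (SD, n = 3 each). Cish made up 37.3% ± 0.408 and 38.3% ± 2.29, and Socs3 14.8% ± 0.465 and 17.7% ± 1.66. The sum over these 7 genes was 236.8 ± 9.42 TPM in Control and 198.8 ± 6.72 TPM in IL-33, with libraries at 226 to 244 and 192 to 206 TPM. Socs7, at 39.7 CPM in Control and 38.0 CPM in IL-33, was not among the chosen genes and is not in the sum. Within the PIM family, Pim1 kept a like share, 38.0% ± 0.383 and 37.7% ± 0.648, while Pim2 stood at 38.0% ± 0.415 and 33.5% ± 1.51 and Pim3 at 24.0% ± 0.741 and 28.8% ± 0.998. The summed PIM level overlapped between the groups, at 1001 ± 41.4 and 1055 ± 14.8 TPM. These shares are descriptions, with no test. Shares of a family add up to the whole, so the fall of a gene raises the shares of the others. In TPM, Cish stood lower with IL-33 (88.2 and 76.0) and Socs3 stood at 35.2 in both groups. Pim2 stood at 380.0 and 352.6 TPM and Pim3 at 240.1 and 304.3 TPM.

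The rest of the pathway was read from lists of named genes. Their counts stand beside the shares of all genes tested, 13.6% called higher and 13.9% lower. Among the 16 cytokine ligands whose receptors use JAKs, 11 were tested, 5 rose with IL-33 and 0 fell, and the median log2 fold change was 0.87. That median is the value of Il27, which was not called and averaged 0.379 CPM in Control and 0.694 in IL-33. Il21, at 1.04, was under 1 CPM and not called either. The other uncalled ligands, Il4, Il10, Osm and Lif, lay between -0.028 and 0.10. The ligands that rose were Il5, Il13 and Il6, Ifng and Csf2. Ifng, which codes for interferon-gamma, a known inducer of Socs1, stood at 42.7 ± 4.03 CPM in Control and 83.2 ± 2.50 CPM in IL-33 (log2 fold change 0.96, edgeR's adjusted p = 4.12e-29), the opposite direction to Socs1. Csf2 passed narrowly, with a log2 fold change of 0.47 (edgeR's adjusted p = 0.0477), and its call was lost with DESeq2 (adjusted p = 0.141), with limma-voom (0.0652) and without any 1 library other than the first IL-33, where log2 fold changes ran from 0.35 to 0.52. Il5, Il6 and Il13 rose by 1.35, 1.05 and 0.99 on the log2 scale. Il2 itself was near absent, at 1, 2 and 0 counts in the Control libraries and 0 in the IL-33 libraries, and was not tested. Il9 was at 0 counts in every Control library and at 13, 11 and 7 counts in the IL-33 libraries, and Il3 at 1 to 3 and 8 to 20 counts, both too few for the test. For the 0 ligands called lower, the count was also 0 at an unadjusted p under 0.05 and with DESeq2 and limma-voom.

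Of 22 receptor genes, 20 were tested, 4 rose and 7 fell, with a median log2 fold change of -0.077. Among all genes tested, 13.6% were called higher and 13.9% lower. Il2ra, which codes for the IL-2 receptor alpha chain and is itself a STAT5 target, rose from 951 ± 5.31 to 1194 ± 4.16 CPM (log2 fold change 0.33), and Il12rb2, a chain of the IL-12 receptor, rose by 0.33 as well. Both chains of the interferon-gamma receptor were called, in opposite directions. Ifngr1 rose by 0.22 on the log2 scale and Ifngr2 fell by 0.76, from 8.30 ± 0.0361 to 4.89 ± 1.24 CPM. Il7r, for the IL-7 receptor alpha chain, fell by 0.66, and Il9r fell by 0.62. Il2rb, the shared beta chain, was the 4th that rose, by 0.063, a call lost with scaling by total counts (0.046) and without the first IL-33 library (0.057). Il2rg, for the common gamma chain of the same receptor, went the other way and was called lower. Its level was 126 ± 3.58 CPM in Control and 115 ± 4.52 CPM in IL-33 (log2 fold change -0.13, edgeR's adjusted p = 0.0072).

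Of 10 JAK and STAT genes, 4 rose and 1 fell, against 13.6% and 13.9% of all genes tested, with a median log2 fold change of 0.068. Stat5b rose from 172 ± 5.40 to 229 ± 8.40 CPM (log2 fold change 0.41), Stat3 by 0.26, Stat5a by 0.18 and Jak1 by 0.16. Stat2, which carries type I interferon signals, fell by 0.30, from 155 ± 3.76 to 126 ± 5.18 CPM. Of the other 14 brakes of the pathway, 1 rose and 3 fell, with a median of -0.065. Those 4 of 14 are close to the 27.5% called among all genes tested. Sh2b3, which codes for the adaptor LNK, fell by 0.63, the phosphatase gene Ptpn6 by 0.36 and Ptprc, which codes for CD45, by 0.11, while the ubiquitin ligase gene Cbl rose by 0.099, a call lost without the second Control library (0.075). The SOCS box of SOCS and CIS proteins recruits elongins B and C with a cullin ubiquitin ligase. Of the 6 genes of these partners, 0 passed edgeR's test, 0 had an unadjusted p under 0.05, 0 passed with DESeq2 and 0 with limma-voom, and their log2 fold changes lay between -0.036 and 0.061.

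Of the 12 interferon target genes, 0 rose and 7 fell, against 13.6% and 13.9% of all genes tested, with a median log2 fold change of -0.16. For the 0 called higher, the count was also 0 at an unadjusted p under 0.05 and with DESeq2 and limma-voom. Iigp1, an interferon-inducible GTPase gene, fell by 0.69, from 186 ± 8.64 to 115 ± 8.62 CPM, Gbp2, a guanylate-binding protein gene, by 0.51 and Igtp by 0.36. These GTPase genes have close relatives among which reads may be split, so their single values are less certain. Socs1 and these 7 genes fell while Ifng rose.

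Of the 12 STAT5 targets other than the 10 genes themselves, 4 rose and 2 fell, with a median log2 fold change of -0.000962. Besides Il2ra these were Bcl2l1, a survival gene (0.28), the cyclin gene Ccnd2 (0.14) and Id2 (0.073, a call lost with scaling by total counts and without the third IL-33 library, at 0.055 and 0.069), against Bcl6 (-0.30) and Gfi1 (-0.30), which both code for transcriptional repressors. Bcl6 is a gene that STAT5 is known to repress. Of the 9 STAT3 targets, 3 rose and 0 fell, with a median of 0.10. Both lists stand beside 13.6% called higher and 13.9% called lower among all genes tested. Junb rose from 304 ± 15.5 to 390.0 ± 13.2 CPM (log2 fold change 0.36), Fos by 0.75 and Batf by 0.11, a call lost without the third Control (0.092), the second IL-33 (0.11) or the third IL-33 library (0.11). For the 0 STAT3 targets called lower, the count was also 0 at an unadjusted p under 0.05 and with DESeq2 and limma-voom.

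Of 12 genes whose proteins PIM kinases are known to phosphorylate, 11 were tested, 5 rose and 2 fell, with a median log2 fold change of 0.15. The shares of all genes tested were 13.6% higher and 13.9% lower. The cell cycle inhibitor gene Cdkn1a rose from 305 ± 5.54 to 401 ± 10.7 CPM (log2 fold change 0.40). Foxo1 and Foxo3, whose products are inhibited when phosphorylated, rose by 0.36 and 0.32, the translation repressor gene Eif4ebp1 by 0.23 and Cdkn1b by 0.16. Mybl2 fell by 0.48 and Cdc25a, a cell cycle phosphatase gene, by 0.20 (edgeR's adjusted p = 0.0379). The Cdc25a call was lost with DESeq2 (adjusted p = 0.144) and, in edgeR, without any 1 library other than the third Control, where the log2 fold changes ran from -0.21 to -0.10. Transcript levels of these genes say nothing of the phosphorylation of their proteins.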

How the data were processed

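RNA of 3 Control and 3 IL-33 samples was sequenced, and the authors deposited raw read counts per Ensembl gene. The submitters' processing notes name Bowtie 0.12.2 and the build mm8, with no role given, and neither the counting program nor whether it used the strand was stated. A deposited column of means was not used. Symbols and positions came from GENCODE M21 (GRCm38), which matched 26072 of 26128 IDs, and promoter letters from RefSeq. Genes were filtered with filterByExpr (minimum count 10, minimum total 15), which left 14671, scaled by TMM and tested with edgeR 4.0.16 (robust quasi-likelihood test, R 4.3.3), with Benjamini-Hochberg adjustment at 0.05 over all of them. The fold threshold was 1.5 (0.585 on the log2 scale). Library totals of 20256342 to 22336050 counts put the floor of 3 counts at 0.135 to 0.148 CPM. DESeq2 1.42.0, limma-voom (limma 3.58.1), other scalings and filters, a replicate block, a test against the fold threshold and leaving out each library were alternatives, of which scaling by total counts and by the upper quartile were chosen after seeing the data. The tests were checked on simulated data. The 10 genes and all lists were chosen with earlier results of these data known. Named genes were the 10, the up to 3 largest rises and falls among the called genes of each list with a mean of at least 1 CPM, and every gene of a count of 5 or fewer. Il2, Il3, Il9, Il2rg, Irgm1, Irf1, Irf9, Psmb9 and the markers given singly were named after their values were seen. A gene of the JAK and STAT list is not reported here.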

Additional observations from a re-analysis of the deposited data

How the results depend on the processing

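Over 14 alternatives, Socs1, Cish and Pim3 were called in the same direction each time (log2 fold changes of Socs1 -0.96 to -0.80, Cish -0.23 to -0.17, Pim3 0.32 to 0.40). Socs3, Socs4 and Socs6 never passed. Of the 10 genes, 6 were called in the analysis reported, 4 with DESeq2, 7 with limma-voom and 3 to 6 when 1 library was left out, with Socs1, Cish and Pim3 the 3 called without the third IL-33 library. Genes past both thresholds numbered 714 of all tested, and 113 in a test against the fold change of 1.5 itself, which asks more of each gene. With DESeq2 the log2 fold changes of Socs2 (0.33), Pim1 (0.082), Batf (0.11), Csf2 (0.47) and Cdc25a (-0.20) lost their calls, and with limma-voom those of Csf2 (0.46) and Cdc25a (-0.19) did. Scaling by total counts ended the calls of Pim1 (0.065), Batf (0.095), Csf2 (0.45), Il2rb (0.046) and Id2 (0.055), and testing without a filter ended those of Batf (0.11) and Csf2 (0.47). Socs5 passed with limma-voom (-0.25), DESeq2 size factors (-0.26), total counts (-0.27) and a minimum of 1 CPM (-0.25). When 1 library was left out, log2 fold changes ran from 0.19 to 0.44 for Socs2, -0.085 to 0.11 for Socs3, -0.30 to -0.21 for Socs5, -0.029 to 0.11 for Socs6, 0.054 to 0.11 for Pim1, -0.11 to -0.065 for Pim2, 0.075 to 0.12 for Cbl, 0.092 to 0.12 for Batf, 0.35 to 0.54 for Csf2, 0.057 to 0.072 for Il2rb, 0.069 to 0.081 for Id2 and -0.30 to -0.10 for Cdc25a. The signs turned for Socs3 without the third Control (-0.024) or the third IL-33 library (-0.085) and for Socs6 without the third IL-33 library (-0.029). The causes were not tested, and leaving out a library also leaves fewer samples. With the length of the longest transcript, which changes each divisor, Control levels were 39.4 TPM for Socs1, 5.32 for Socs2, 31.3 for Socs3, 35.1 for Socs4, 8.34 for Socs5, 11.8 for Socs6, 94.8 for Cish, 409 for Pim2 and 189 for Pim3. Socs1 moved from the 5th to the 7th place with either length, and with this one Pim2 stood above Pim1 in Control (409 and 373 TPM) and below it in IL-33 (378 and 389 TPM, ranges overlapping).

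Correlations of deviations between same-numbered libraries of the groups were 0.0116, 0.0032 and 0.0107, against -0.0138 to 0.0029 between the other pairs. All were small, and they cannot tell whether same-numbered libraries shared a mouse or a culture. With the replicate number as a block, 4 of the 10 genes and 3798 of all genes tested were called, against 6 and 4036 without it, and the calls of Socs2 (0.32), Pim1 (0.082), Csf2 (0.46), Il2rb (0.063) and Cdc25a (-0.19) were lost. With 3 libraries a group, exact permutation tests of ratios cannot reach 0.05, whatever the alternative. Counts of Socs2, the lowest of the 10, were 169 to 312 a library.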
